A study of Mus musculus with 11 samples.

Results

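The serpins are a superfamily of proteins that share one fold, most of which trap and inactivate proteases. The members described here were all rows of the gene table whose symbol begins with Serpin, a clade letter from a to i and a number, the pseudogene Serpina4-ps1 included. This gave 62 of the 20893 genes in the table: 25 Serpina, 26 Serpinb, 1 Serpinc, 1 Serpind, 3 Serpine, 2 Serpinf, 1 Serping, 1 Serpinh and 2 Serpini genes. mRNA was measured by bulk RNA-seq in 11 whole livers of C57BL/6 mice. The 4 control livers carried ROSA26-rtTA-IRES-EGFP without the tetYAP transgene (labelled WT) and are listed with doxycycline food for 7 days. The other livers carried ROSA26-rtTA-IRES-EGFP and tetYAP, which encodes a YAP mutated at an inhibitory phosphorylation site, and came from mice fed doxycycline for 3 days (4 livers) or 7 days (3 livers). In the study's methods rtTA is switched on by a Cre recombinase under the albumin promoter, so the transgene is meant for hepatocytes; the labels do not say which livers carried Cre. Ages are not given in the sources used here. No source states that the livers of a group came from separate litters, so p-values measure the spread between these livers only.

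Hepatocytes make most of the serpins of blood plasma. Clade A serpins include alpha-1-antitrypsin, which blocks neutrophil elastase, the antichymotrypsin-like Serpina3 genes, and the hormone carriers Serpina6 (corticosteroid-binding globulin) and Serpina7 (thyroxine-binding globulin), which transport and do not inhibit. Clades C, D, F and G hold the plasma regulators of clotting, clot lysis and complement. Clade B serpins stay inside cells and protect them, leukocytes in particular, from their own granule proteases. Serpinh1 is a collagen chaperone of the endoplasmic reticulum.

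In mice alpha-1-antitrypsin is encoded by several nearly identical copies that lie side by side on chromosome 12, and the sequences before their transcription starts are shown here because 1 copy, Serpina1e, behaved unlike the other 4 in these livers. Each stretch is 106 bases of a RefSeq promoter (table build GRCm38.p6), matched exactly to the minus strand of mm9 and printed from 5′ to 3′. Capitals mark GTTAAT, the half-site of the hepatocyte factor HNF1.
Serpina1a, chr12:105101835-105101940: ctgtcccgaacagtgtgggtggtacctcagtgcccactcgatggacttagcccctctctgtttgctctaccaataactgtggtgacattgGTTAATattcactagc
Serpina1b, chr12:104976410-104976515: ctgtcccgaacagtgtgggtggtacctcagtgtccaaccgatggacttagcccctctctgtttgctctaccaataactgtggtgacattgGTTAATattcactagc
Serpina1c, chr12:105143172-105143277: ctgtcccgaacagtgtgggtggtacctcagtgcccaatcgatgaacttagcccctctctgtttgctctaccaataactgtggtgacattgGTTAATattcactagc
Serpina1d, chr12:105011844-105011949: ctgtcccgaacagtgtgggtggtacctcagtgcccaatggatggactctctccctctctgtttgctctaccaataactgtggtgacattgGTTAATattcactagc
Serpina1e, chr12:105195170-105195275: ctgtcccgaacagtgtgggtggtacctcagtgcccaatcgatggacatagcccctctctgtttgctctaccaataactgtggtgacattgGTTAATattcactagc
Over these 106 bases Serpina1e was identical to Serpina1a at 104 positions (98.1%) and to Serpina1c at 104 positions. Serpina1d was the most distant of the 5, with 94.3% identity to Serpina1e. In RefSeq the half-site began 21, 26, 27 and 16 bases before the start of Serpina1a, Serpina1b, Serpina1c and Serpina1d, and 78 bases before that of Serpina1e.

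GTTAAT, searched on both strands in windows of 300 bases (250 before each start), was found in 8 of 21 Serpina promoters (38.1%) against 7.1% of 32851 promoters of all genes. These 8 promoters belonged to 7 genes: the 5 similar alpha-1-antitrypsin copies, Serpina3c and Serpina7, which had 2 promoters in the table. It was in 3 of 29 Serpinb promoters (10.3%). CATTCC, the letters of a TEAD site, were found in 7 of the 21 Serpina promoters (33.3%), in 5 of the 29 Serpinb promoters (17.2%) and in 14.7% of all promoters. The 7 Serpina promoters belonged to 6 genes: Serpina3b, Serpina3i, Serpina3j, Serpina5, Serpina7 and Serpina12. Serpina3b and Serpina3j were too low to be tested for change, and the others did not pass the test described below. The 5 Serpinb promoters were of Serpinb6a, which rose at 7 days, and of the untested Serpinb1b, Serpinb9c, Serpinb10 and Serpinb12. CAAAGTCCA, the letters of an HNF4 repeat, were in none of the 59 serpin promoters and in 0.475% of all promoters. The table held promoters for 51 of the 62 genes, and those of Serpina6, Serpina10, Serpina3k, Serpina3m, Serpina4-ps1, Serpina9, Serpinb1a and Serping1 were among those without an entry. These are matches of letters in a window and show no binding.

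Levels are given in eRPKM, which is the number of exonic reads per kilobase of a gene after the authors had scaled each library by its total. Depth was unequal: controls held 1251396 to 5495697 reads on genes, 3-day livers 2660233 to 3681416 and 7-day livers 5312486 to 5941357. Liver 2 at 7 days stood apart, with reads on 92.3% of the genes in the table against 70 to 86.3% in the others. The labels of this liver and of 3-day livers 1 and 4 carry the letters MF, whose meaning is not given in the sources used here. The Xist and Ddx3y levels marked controls 1 and 4 and 3-day livers 1 and 2 as male and all the others as female, so every 7-day liver was female. Albumin, the main hepatocyte product, was at 234 to 918 eRPKM in every liver. The row of the mouse gene Yap1 was at 13.9 to 21.1 eRPKM in controls, 15.3 to 19.3 in the 3-day and 17.4 to 19.0 in the 7-day livers, so it did not show the transgene.

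Serpins took 0.740 to 1.4% of the summed eRPKM in controls, 0.813 to 0.950% in 3-day livers and 0.509 to 0.556% in 7-day livers. A gene was tested where it reached 0.5 eRPKM in at least 3 livers, which 37 serpins did: 22 of 25 Serpina, 6 of 26 Serpinb and 9 of the 11 genes of the other clades. The 25 untested members, 20 of them Serpinb, never exceeded 0.755 eRPKM (Serpinb9b). All 25 had reads in liver 2 at 7 days, at least 100 in total, whereas the other livers had reads on 3 to 17 of them and 5 to 44 recovered reads in total. For 7 of the 25 that liver held the only reads. Recovery took the smallest whole number that fitted, so each of these 7 was set at 1 read and may have had more. Both Serpini genes, of which Serpini1 is neuroserpin (0.0700 to 0.567 eRPKM), were among the untested.

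Tests used limma on log2(eRPKM + 0.5) over all genes, and a gene was called where its Benjamini-Hochberg adjusted p was below 0.01 and its log2 fold change exceeded 0.5 in size. A fold change on this scale understates the change of low genes. After 3 days 0 of the 37 serpins were called, against 0.0421% of 14244 genes, and 2 serpins (Serpina5 and Serpina12) had an unadjusted p under 0.05 (5.41%, against 12.1% of all genes). The median log2 fold change at 3 days was -0.10 over the serpins and 0.02 over all genes. No alternative fit called any serpin at 3 days.

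After 7 days the serpins that fell were mostly Serpina genes, and those that rose were all Serpinb genes. Of the 22 Serpina genes tested 8 fell and 0 rose; of the 6 Serpinb genes 3 rose and 1 fell; and of the 9 genes of clades C to H 1 fell and 0 rose. That made 3 serpins higher and 10 lower, where 18.0% of all genes were called higher and 5.77% lower. Without liver 2 at 7 days, which stood apart, 2 serpins were higher and 4 lower, and over all genes 1671 were higher and 551 lower. Without the 3 livers labelled MF 3 serpins were higher and 5 lower, and over all genes 2080 and 718. With every liver the counts over all genes were 2561 and 822. The median log2 fold change was -0.96 for Serpina, 0.83 for Serpinb and -0.69 for clades C to H, beside 0.26 for all genes. All 3 livers at 7 days lay below all 4 controls for 19 of the 37 serpins, against 13.3% of all genes, and above them for 4 serpins, against 36.7%. No Serpina gene was called higher in any of the 27 alternative fits, and between 3 and 14 were called lower.

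**Figure D1:**
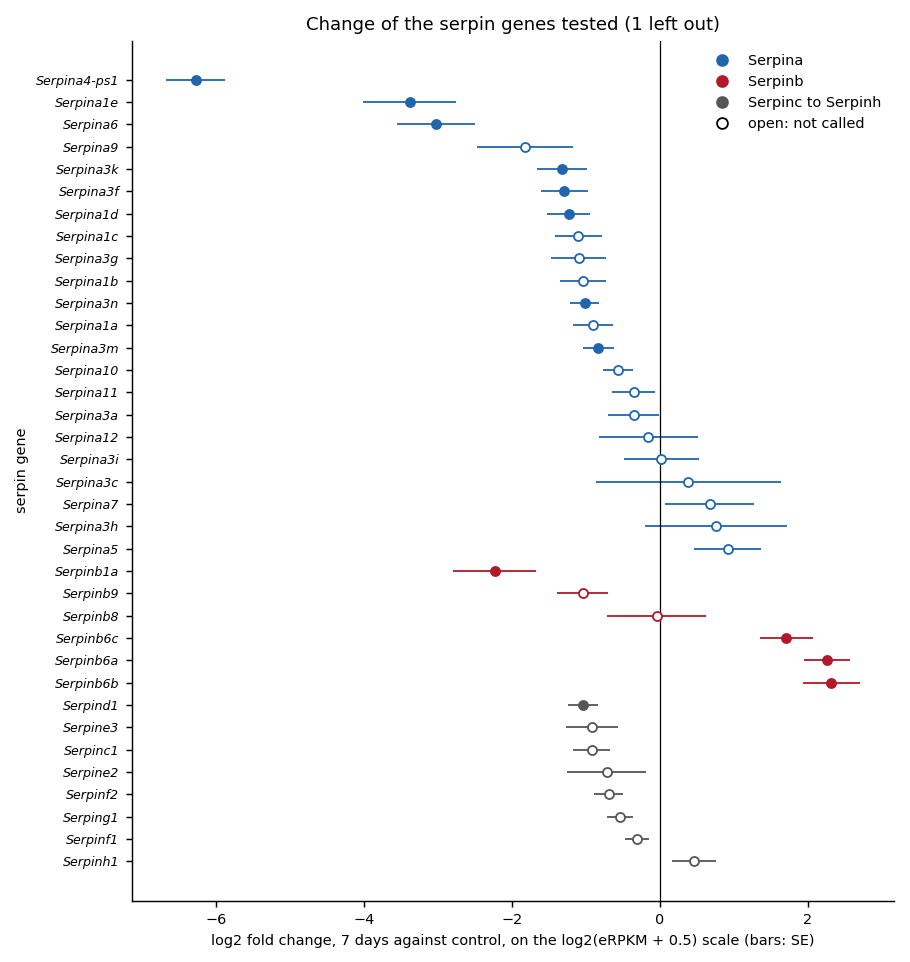
Log2 fold change at 7 days against control on the log2(eRPKM + 0.5) scale for the serpins tested, 1 left out (y axis), coloured by clade, with bars for the SE and filled points for called genes. Filled Serpina points all lie left of 0 and reach -6.28, and the 3 filled Serpinb points right of 0 are the Serpinb6 genes.

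Transcripts abundant in controls were lower as a class at 7 days. Of the 675 genes with a control mean of at least 100 eRPKM, a limit chosen after values were seen, 38.1% were called lower at 7 days and 0 higher, with a median log2 fold change of -0.71. The class rests on control values that also enter the comparison, which favours falls. Genes that reached 100 eRPKM only at 7 days are left out of it. All 15 serpins of the class had a negative change, 7 of them called (46.7%), with a median of -1.02. Reads on such genes grew less than depth: control liver 2 held 4.39 times the reads of control liver 4, while the 15 abundant serpins held a median of 2.23 times as many reads there, and genes at 5 to 50 eRPKM 6.18 times as many. These 2 livers also differed in sex. In control 2 alone, whose depth lies within that of the 7-day livers, 14 of these 15 serpins were above all 3 livers at 7 days (472 of the 675 genes were). The median log2 difference was -0.39 for the 15 serpins and -0.31 for the 675 genes. With log2 depth as a covariate 3 of the 15 were called and their median was -0.33. In that fit 577 of all 14244 genes were called lower, against 822 without the covariate. Depth and time cannot be fully told apart in this design, and in whole liver fewer hepatocytes and less mRNA per hepatocyte cannot be told apart either.

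The largest fall among the serpins was that of Serpina4-ps1, a pseudogene related to kallistatin (chr12:105318859-105324934, mm9). It was at 115, 56.8, 41.0 and 44.3 eRPKM in controls, 147, 62.6, 61.1 and 107 at 3 days, and 0.564, 0.339 and 0 at 7 days. Controls and 3-day livers overlapped, and all 7-day livers were near the detection limit, with 6, 4 and 0 reads against 110 to 890 reads in the controls. With a floor of 3 reads per library the mean was at least 162-fold lower at 7 days. limma gave a log2 fold change of -6.28 (SE 0.40, adjusted p = 6.73e-07), and the call held in all 27 alternatives.

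Serpina6, corticosteroid-binding globulin (chr12:104884840-104895422), was at 145, 166, 209 and 99.2 eRPKM in controls, 92.1, 139, 204 and 109 at 3 days, and 57.5, 7.48 and 13 at 7 days. All 7-day livers were below every other liver, and liver 1 kept several times the level of the other two. limma placed it at a log2 fold change of -3.03 (SE 0.53, adjusted p = 0.000717) from control and of -2.82 (adjusted p = 0.00148) from the 3-day livers. Its reads grew 7.36 times from control 4 (187) to control 2 (1377), more than depth did, whereas those of the other 14 abundant serpins grew 0.792 to 3.21 times. Control 4 was male and control 2 female, so sex differed along with depth. The lowest ratio, 0.792, was that of Serpina1e, which was higher in males. The Serpina6 call against control held in all 27 alternatives, at -3.29 when log2 depth was a covariate and at -3.34 among female livers. Serpina7, the thyroxine carrier on chromosome X, was at 38, 18.1, 34.7 and 26.4 eRPKM in controls, 76, 12.5, 14.3 and 72.6 at 3 days, and 79.5, 27.8 and 41.8 at 7 days. Its groups overlapped and it was not called (0.67, adjusted p = 0.407).

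Serpina1e was at 248, 106, 79.0 and 590 eRPKM in controls, 251, 236, 65.1 and 104 at 3 days, and 12, 24.5 and 18.2 at 7 days. All 7-day livers were below every other liver, and the livers above 200 eRPKM were the 4 male ones. Its log2 fold change was -3.38 (SE 0.63, adjusted p = 0.00111 by limma). In female livers only it was -2.36 (adjusted p = 0.000892), and with depth as a covariate -2.48 (adjusted p = 0.0289), the 1 alternative of 27 in which the call was lost.

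Among the 8 control and 3-day livers Serpina1e was at 65.1 to 106 eRPKM in the 4 females and 236 to 590 in the 4 males, without overlap (exact two-sided permutation p = 0.0286, the smallest that 4 against 4 allows, and 0.611 after Benjamini-Hochberg adjustment over all genes). It was 1 of 3 serpins whose sexes did not overlap. Across all genes 4.68% had all females on one side of all males. Serpine2 (protease nexin-1), an inhibitor of thrombin, was likewise lower in females, at 0.987 to 2.15 against 2.98 to 6.99 eRPKM. Serpinb6a was higher in females, at 11.5 to 19.0 against 5.05 to 9.09 eRPKM. These 3 genes were picked out after all 37 had been compared.

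The other 4 alpha-1-antitrypsin copies had smaller differences. Serpina1b, the most abundant of them, was at 179, 134, 271 and 453 eRPKM in controls, 211, 172, 175 and 169 at 3 days, and 109, 109 and 121 at 7 days. Its 7-day livers were below every other liver, but its reads differed little, at 848 to 1099 in controls and 876 to 970 at 7 days. Serpina1d was at 125, 97.8, 175 and 294 eRPKM in controls, 136, 111, 118 and 112 at 3 days, and 61.3, 65.4 and 75.3 at 7 days, again with no overlap. Over controls, 3-day and 7-day livers, Serpina1a ranged from 70.3 to 188, 72.5 to 94.6 and 50.7 to 65.3 eRPKM, and Serpina1c from 82.6 to 281, 90.5 to 119 and 57.7 to 70.3 eRPKM. Log2 fold changes at 7 days were -0.90 for Serpina1a, -1.04 for Serpina1b, -1.10 for Serpina1c and -1.23 for Serpina1d, and by limma the last was called (adjusted p = 0.00477) and the first 3 were not (adjusted p = 0.0172, 0.0193 and 0.0153). The Serpina1d call was lost in 10 of 27 alternatives.

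The ratio of Serpina1e to the mean of the other 4 copies, which compares genes within a library, was 2.0, 1.11, 0.453 and 1.94 in controls, 1.79, 1.92, 0.561 and 0.938 at 3 days, and 0.172, 0.336 and 0.220 at 7 days. All 7-day ratios were below all others, and its log2 difference from control was -2.34 (exact two-sided permutation p = 0.0571). The ratio was 1.79 to 2.0 in the 4 male livers and 0.453 to 1.11 in the females of the control and 3-day groups, and every 7-day liver was female. Against the 2 female controls alone the log2 difference was -1.60 (exact two-sided permutation p = 0.1, the smallest that 3 against 2 allows). The copies share sequence: of the 50-base words in their transcripts 33.7% (Serpina1e), 42.8% (Serpina1a), 45.0% (Serpina1b), 48.0% (Serpina1d) and 73.3% (Serpina1c) also occur in another gene, so the split of reads between copies is uncertain.

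**Figure D2:**
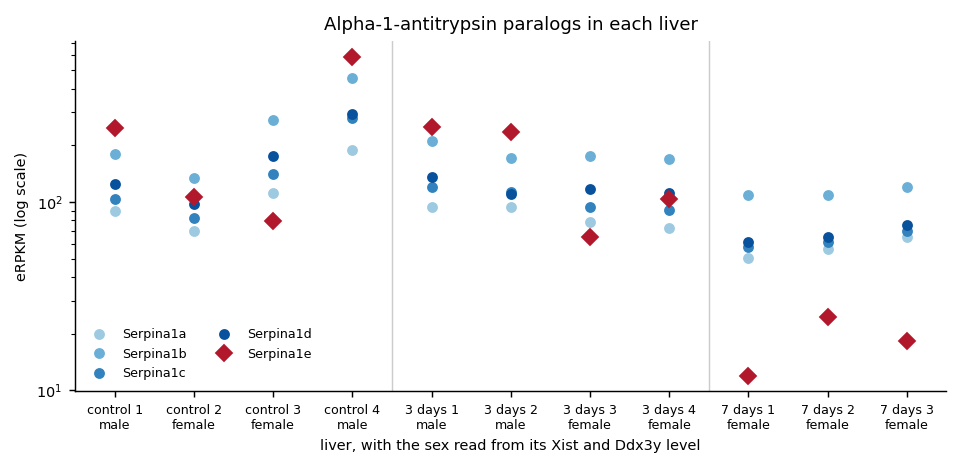
eRPKM (log scale) of the 5 alpha-1-antitrypsin copies in each liver (x axis, with the sex read from Xist and Ddx3y), where red diamonds are Serpina1e and blue circles the other 4 copies. Serpina1e is the highest copy in the 4 male livers and the lowest in all 3 livers at 7 days, at 12 to 24.5 eRPKM.

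The antichymotrypsin-like genes fell by less. Serpina3n, an acute-phase inhibitor of cathepsin G and granzyme B, was at 140, 147, 161 and 246 eRPKM in controls, 119, 157, 154 and 126 at 3 days, and 83.6, 82.6 and 83.9 at 7 days. The 7-day livers were nearly equal and below all others (log2 fold change -1.02, SE 0.19, adjusted p = 0.00138 by limma; call lost in 3 of 27 alternatives). Serpina3k was at 207, 141, 282 and 524 eRPKM in controls, 275, 203, 189 and 201 at 3 days, and 105, 92.1 and 111 at 7 days. It was called at -1.32 (adjusted p = 0.00797), but the call was lost in 17 of 27 alternatives.

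Serpina3m fell by 0.83 on the log2 scale (adjusted p = 0.00772 by limma), from 98.3, 114, 143 and 196 eRPKM in controls and 112, 108, 134 and 140 at 3 days to 69.1, 76.1 and 78.8. All 7-day livers were below the rest, and the call was lost in 13 of 27 alternatives. Serpina3f was low throughout, at 2.5, 3.93, 3.34 and 3.05 eRPKM in controls, 2.54, 1.64, 2.88 and 4.03 at 3 days, and 1.82, 0.784 and 0.638 at 7 days. The highest 7-day liver lay above the lowest 3-day liver, and its call (-1.29, adjusted p = 0.00700) was lost in 12 of 27. Serpina10, the protein Z-dependent inhibitor of clotting factor Xa, was at 132 to 261 eRPKM in controls, 170 to 197 in 3-day livers and 102 to 126 in 7-day livers. It was not called (-0.57, adjusted p = 0.0444).

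Serpina3c, Serpina3h, Serpina3i and Serpina7, singled out after their values were seen, did not follow time. Serpina3c was at 26.1 and 21.2 eRPKM in 3-day livers 1 and 4 and at 8.04 in liver 1 at 7 days, against 0.108 to 2.09 in the other 8 livers. The same 3 livers were highest for Serpina3h (6.21, 10.3 and 5.12, others at most 0.900), Serpina3i (1.99, 2.76 and 1.65, others at most 1.29) and Serpina7 (76.0, 72.6 and 79.5, others 12.5 to 41.8). Over the 11 livers the correlation of log2 levels with Serpina3c was 0.92 for Serpina3h, 0.83 for Serpina3i and 0.70 for Serpina7, as a description. One 3-day liver of the 3 was male and one female, and none of the 4 genes was called in any comparison. Both 3-day livers were labelled MF, the 7-day one was not, and the 7-day liver that was (liver 2) was at 0.290 eRPKM for Serpina3c.

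**Figure D3:**
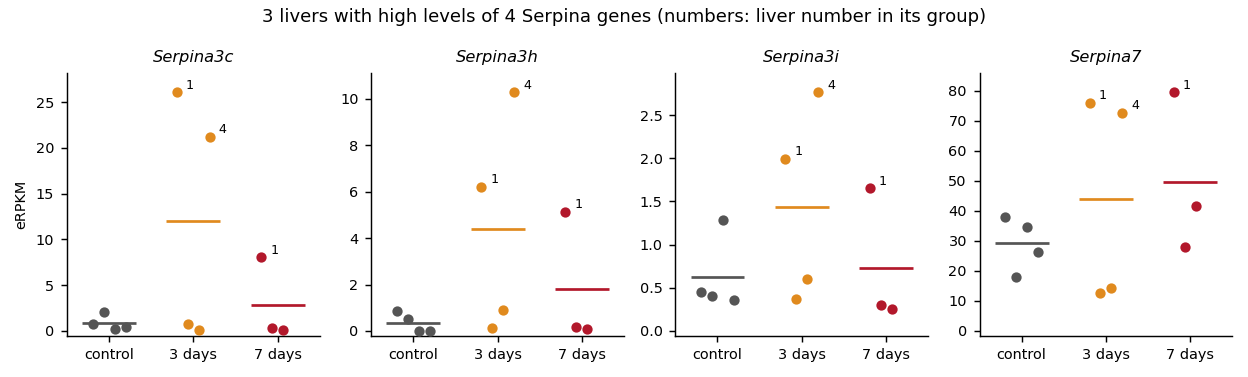
eRPKM in each liver (points, with the group mean as a line) of Serpina3c, Serpina3h, Serpina3i and Serpina7 in controls and after 3 and 7 days. The numbered points are 3-day livers 1 and 4 and 7-day liver 1, which are the 3 highest for each gene, with Serpina7 at 72.6 to 79.5.

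Among the plasma serpins of the other clades, Serpind1 (heparin cofactor II), which inhibits thrombin, was at 212, 189, 247 and 347 eRPKM in controls, 267, 220, 180 and 243 at 3 days, and 119, 114 and 120 at 7 days. All 7-day livers were below all others (log2 fold change -1.04, SE 0.21, adjusted p = 0.00182 by limma). With depth as a covariate it was called at -0.63, and the call was lost in 5 of 27 alternatives. Serpinc1, antithrombin, was at 215, 181, 295 and 435 eRPKM in controls, 275, 212, 211 and 232 at 3 days, and 144, 129 and 149 at 7 days. It too lay below all others at 7 days but was not called (-0.92, SE 0.25, adjusted p = 0.0117), and its value with depth as a covariate was -0.33.

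Serpinf2 (alpha-2-antiplasmin), the inhibitor of plasmin, was at 224, 196, 288 and 368 eRPKM in controls, 252, 230, 209 and 238 at 3 days, and 155, 159 and 170 at 7 days. It was below the others at 7 days but was not called at -0.69 (adjusted p = 0.0150 by limma). Serping1, the C1 inhibitor of complement and contact activation, was at -0.54 (adjusted p = 0.0313) and Serpinf1 (PEDF), an antiangiogenic factor, at -0.31 (adjusted p = 0.140). Serping1 was at 158 to 270 eRPKM in controls, 171 to 204 in 3-day and 138 to 153 in 7-day livers, without overlap between 7 days and the rest, while Serpinf1 overlapped, at 130 to 178, 139 to 161 and 110 to 135. Under cyclic loess normalization these 3 and Serpina10 had changes of 0.06, 0.14, 0.27 and 0.04, with the opposite sign.

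The 3 serpins that rose were Serpinb6 genes of the cluster on chromosome 13. Serpinb6a (chr13:34009787-34094663), an intracellular inhibitor of cathepsin G and trypsin-like proteases, was at 8.96, 11.8, 12.8 and 5.05 eRPKM in controls, 8.56, 9.09, 11.5 and 19.0 at 3 days, and 43.4, 46.3 and 47.3 at 7 days. Every 7-day liver was more than double the highest of the others. The log2 fold change was 2.26 against control (SE 0.31, adjusted p = 0.000135 by limma) and 1.95 against 3 days (adjusted p = 0.000506), and both calls held in all 27 alternatives, at 1.85 against control in female livers only and 1.79 with depth as a covariate. Counting did not use strand, and exons of Serpinb6a overlap those of Ripk1, Nqo2 and 1110046J04Rik on mm9. The level of 1110046J04Rik is not given here. Ripk1 was not called (0.30, adjusted p = 0.150) and Nqo2 fell by 0.96 on the log2 scale (adjusted p = 0.000232).

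Serpinb6b (chr13:33057182-33070936), which other Serpinb genes part from Serpinb6a, was at 2.54, 3.02, 3.02 and 2.08 eRPKM in controls, 7.02, 3.87, 1.27 and 4.66 at 3 days, and 13.2, 16.5 and 16.1 at 7 days. All 7-day livers were above the rest, and the call (2.32, SE 0.38, adjusted p = 0.000519 by limma) was lost in 1 of 27 alternatives. Serpinb6c (chr13:33971685-33997577), next to Serpinb6a among the members, stayed low, at 0.745, 0.396, 0.603 and 0 eRPKM in controls, 0.545, 0.400, 0.197 and 1.18 at 3 days, and 2.17, 2.44 and 2.60 at 7 days. That was 0 to 4 reads in controls against 16 to 20 reads at 7 days (1.71, SE 0.36, adjusted p = 0.00254), and its call was lost in 9 of 27. The 3 genes share few 50-base words with other genes, 7.89, 2.45 and 7.71% of their own. Serpinb6d and Serpinb6e, between Serpinb6b and Serpinb6c on the chromosome, had at most 2 reads in any liver.

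Serpinb1a, the inhibitor of neutrophil elastase in granulocytes, went the other way. It was at 1.02, 11.2, 5.18 and 3.99 eRPKM in controls, 5.43, 1.93, 3.93 and 6.5 at 3 days, and 0.279, 0.755 and 0.470 at 7 days. All 7-day livers lay below all others, with 3 to 9 reads each. The call (-2.23, SE 0.56, adjusted p = 0.00754 by limma) was lost in 14 of 27 alternatives. Serpinb9, the inhibitor of granzyme B, was at 11.7, 16.7, 11.9 and 9.59 eRPKM in controls, 21.7, 9.13, 6.98 and 17.8 at 3 days, and 4.42, 6.77 and 6.08 at 7 days. It was not called (-1.04, adjusted p = 0.0302), although its 7-day livers were below all others. Serpinb8, the last of the 6, was at -0.04.

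Of the immune and blood cell markers, those of macrophages and neutrophils were called higher more often than the 18.0% of all genes, while Serpinb6a, Serpinb6b and Serpinb6c rose and Serpinb1a fell. At 7 days 9 of 11 Kupffer cell or macrophage markers were called higher, with a summed level of 245 to 436 eRPKM in controls and 1011 to 1059 at 7 days. Of 7 neutrophil markers 3 were called higher, with sums of 18.7 to 29.9 and 56.0 to 95.4. The largest rise of the 3 was that of Mmp9 (0.505 to 27 eRPKM on average, log2 fold change 4.61). S100a8 (1.58) and Csf3r (0.93) had positive changes but were not called, and Cxcr2 (-0.13) and Camp (-0.07) did not rise. T or NK cell markers had 1 of 11 called higher (sums 3.47 to 14.7 and 11.8 to 19.1), platelet or megakaryocyte markers 1 of 6 (6.17 to 9.29 and 27.4 to 39.7), and B or plasma cell markers 0 of 6 (121 to 140.0 and 106 to 122). Most of the platelet sum at 7 days was Pf4, which was called higher (2.13 to 27.7 eRPKM on average), whereas Ppbp (log2 fold change -0.34), Gp1ba (-0.51) and Itga2b (0.04) were not called. No marker in these lists was at 0 in every liver. Their part in the Serpinb values was not tested.

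Markers of the other liver cell types were counted in the same way. Hepatocyte markers had 8 of 15 called lower (53.3%, against 38.1% of all genes of at least 100 eRPKM in controls, a class that favours falls, as all 15 were) and 0 higher. Their sums were 3028 to 8282 eRPKM in controls and 1932 to 2316 at 7 days. Albumin, 1 of these markers, had 2417 to 3102 reads in controls and 2840 to 2934 at 7 days. Depth and time cannot be fully told apart for these sums either. Cholangiocyte or progenitor markers had 2 of 9 called higher (49.7 to 66.3 and 93.7 to 146), endothelial cell markers 2 of 10 (175 to 308 and 291 to 313), both near the 18.0% of all genes, stellate cell or fibroblast markers 0 of 12 with 1 lower (209 to 278 and 148 to 182), and the 1 mast cell marker tested was not called (sums of the list 2.60 to 6.10 and 3.43 to 4.39). Whether these cell types account for any serpin value was not tested.

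Serpine2, protease nexin-1, was at 2.98, 1.3, 0.987 and 6.54 eRPKM in controls, 3.37, 6.99, 1.44 and 2.15 at 3 days, and 1.18, 1.42 and 1.09 at 7 days. Its 7-day livers overlapped the females of the other groups, and its log2 fold change was -0.72 (adjusted p = 0.308 by limma), or 0.08 in female livers only.

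Serpinh1, the collagen chaperone, was at 12.2, 13.1, 9.24 and 16.5 eRPKM in controls, 15.9, 9.96, 10.4 and 25.0 at 3 days, and 13.8, 19.5 and 19.7 at 7 days. The groups overlapped and it was not called (0.46, SE 0.30, adjusted p = 0.244 by limma).

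**Figure D4:**
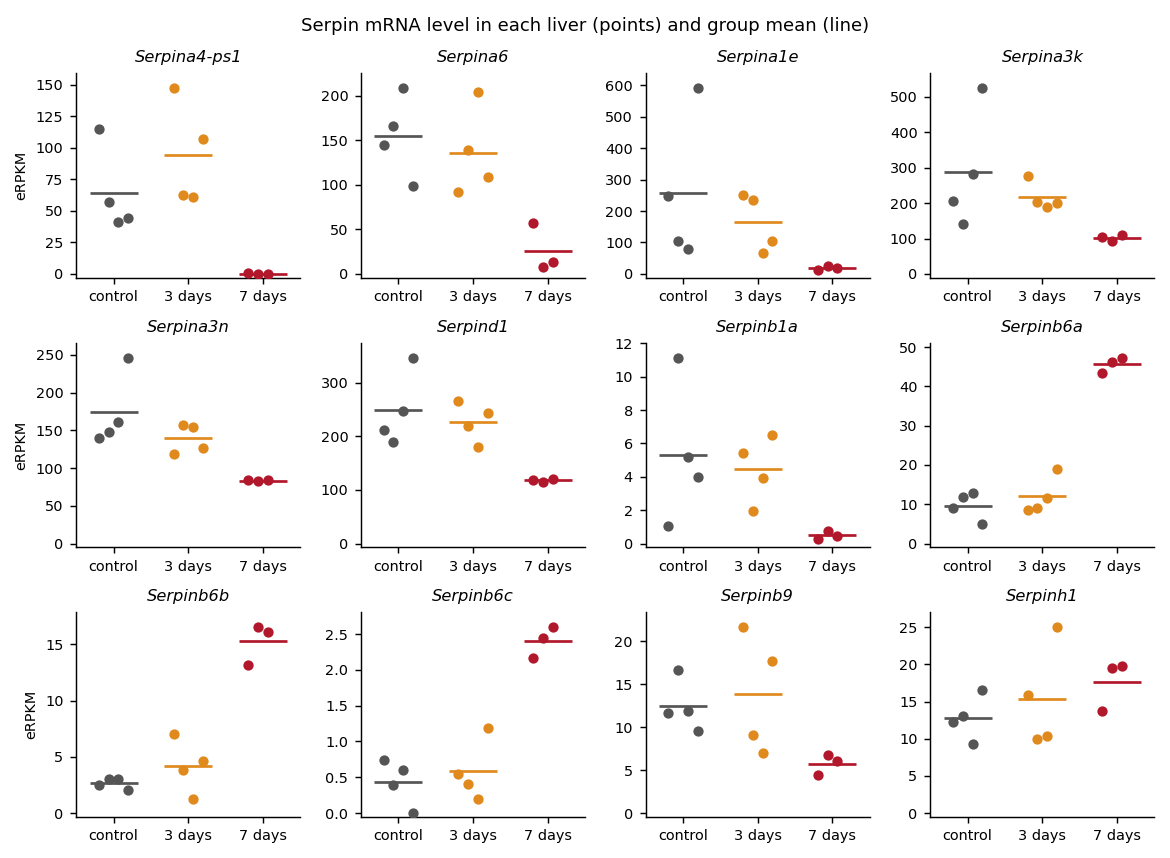
eRPKM (y axis, from 0, its own scale per gene) in each liver (points) and group mean (line) for 12 serpins in controls and after 3 and 7 days. The 7-day points lie below all others for Serpina4-ps1, Serpina6, Serpina1e, Serpina3k, Serpina3n, Serpind1, Serpinb1a and Serpinb9 and above all others for Serpinb6a, Serpinb6b and Serpinb6c, while those of Serpinh1 overlap.

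Against the 3-day livers, where 14.0% of all genes were called higher and 5.31% lower, Serpinb6a, Serpinb6b and Serpinb6c were among those higher at 7 days and 5 serpins were lower (Serpina4-ps1, Serpina1e, Serpina6, Serpinb1a and Serpind1). This comparison shares the 7-day livers with that against control. Depth did not overlap between these groups, as no 3-day library held more than 3681416 reads. Log2 fold changes were -6.86, -2.98, -2.82, -2.23 and -0.93 for those lower and 1.95, 1.91 and 1.5 for the 3 Serpinb6 genes. The calls of Serpina4-ps1 and Serpinb6a held in all 27 alternatives, and those of Serpina6, Serpina1e, Serpinb6b, Serpind1, Serpinb1a and Serpinb6c were lost in 3, 5, 5, 13, 15 and 17 of them.

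**Figure D5:**
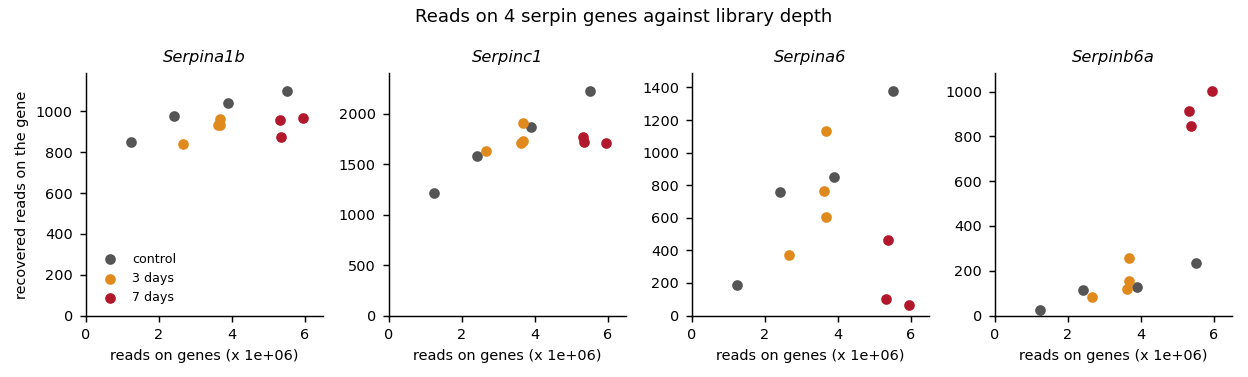
Reads recovered on Serpina1b, Serpinc1, Serpina6 and Serpinb6a (y axis, from 0) against the reads on genes of each library (x axis, in units of 1e+06), coloured by group. Reads on Serpina1b stay between 839 and 1099 over the whole range of depth, while Serpina6 and Serpinb6a grow with depth in controls and part at 7 days, to 67 to 464 and 847 to 1002 reads.

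By position, 8 of the 21 tested genes of the Serpina cluster on chromosome 12 (24 members within chr12:104854885-105652539) were called lower and 0 higher. On chromosome 13 (14 members within chr13:32933961-34094663) 3 of 5 tested were called higher and 1 lower. On chromosome 1, where 13 members lie, 0 of 3 tested were called. Over all genes 18.0% were called higher and 5.77% lower. Of the 8 on chromosome 12, all but Serpina3f and Serpina4-ps1 had a control mean of at least 100 eRPKM. At that level 38.1% of all genes were called lower.

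Proteases to set beside the serpins were taken from a list of 36 genes written from general knowledge, of which 31 were tested. At 7 days 3 rose (9.68%, against 18.0% of all genes) and 8 fell (25.8%, against 5.77%), with a median log2 fold change of -0.34. Of the 8, 6 were among the 12 with a control mean of at least 100 eRPKM, a level at which 38.1% of all genes were called lower. Those with the largest falls were the clotting factor F11 (60.0 to 3.95 eRPKM on average, -3.83, adjusted p = 1.99e-06 by limma), plasma prekallikrein Klkb1 (122 to 13.3, -3.14), the growth factor activator Hgfac (107 to 30.8, -1.80) and F7 (60.9 to 18.4, -1.70). The 3 that rose were the gelatinase Mmp9 (0.505 to 27.0, 4.61), urokinase Plau (1.22 to 17.0, 3.43) and the leukocyte protease Ctss (43.2 to 116, 1.47). Mmp9, a metalloprotease and not a protease that serpins trap, is also on the neutrophil list.

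A list of receptors, cofactors and clients of serpins also held the protease inhibitors Tfpi and Tfpi2. Of its 25 tested genes 7 rose (28%, against 18.0% of all genes) and 6 fell (24%, against 5.77%), with a median of -0.06. Of the 6, 5 were among the 9 of at least 100 eRPKM. The largest rises were in the proteoglycan Gpc3 (1.80 to 83.1 eRPKM, 5.51, adjusted p = 6.81e-06 by limma), the urokinase receptor Plaur (0.704 to 19.6, 4.11), the protein C receptor Procr (0.877 to 5.85, 2.2) and thrombomodulin Thbd (4.24 to 20.6, 2.15). The largest falls were in the protease inhibitor Tfpi2 (78.8 to 18.4, -2.07), the asialoglycoprotein receptor chains Asgr1 (241 to 117, -1.0) and Asgr2 (119 to 70.5, -0.80), and Fgl1 (207 to 102, -0.95). The collagens that Serpinh1 assists were split: Col4a2 rose (7.42 to 16.1, 1.10), while Col1a1 (-0.25), Col1a2 (-0.13), Col3a1 (0.55), Col4a1 (1.03) and Col5a1 (-0.06) were not called.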

How the data were processed

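The authors aligned read pairs from whole livers to mm9 and counted reads on genes without strand (TopHat2 2.0.8 and featureCounts 1.4.5-p1 are named in the submitters' processing notes), and deposited eRPKM, a form of RPKM, per liver. Handling of duplicate reads is not given in the sources used here. The table's 3 DESeq2 columns for 7 days against control were not used. Whole reads were recovered from the steps between low values (100% of 177553 values above 0 within 0.1 of a whole read) and served for depth and 1 alternative. The 14244 genes that reached 0.5 eRPKM in 3 or more of 11 livers were tested with limma 3.58.1 (R 4.3.3, eBayes with trend) on log2(eRPKM + 0.5), with all groups in 1 fit. Simulated reads were used to check the steps. Single values had exact permutation tests, whose smallest p is 0.0286. Members and lists were chosen with earlier results of these data known. Named were the called members and a set list of anchors, and from partner lists up to 4 called genes a direction. Values of 1 tested member are not reported here. Positions are from GENCODE M1 (mm9) and promoters from RefSeq. Controls 1 and 2 only, cyclic loess and leaving out the livers labelled MF were added after seeing values. The study's ChIP-seq and single-cell experiments are outside this table.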

Additional observations from a re-analysis of the deposited data

Results flagged for a closer look

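In 58 sets of 4 livers (named serpins, depth and the serpin share, in controls and at 3 days) 3 values lay far from the other livers of their group. That is about as many as chance gives, at about 1 in 20. All 3 were in liver 1 at 3 days, so they are not separate results. Its depth was 2660233 reads, against 3626710 to 3681416 in the other 3-day livers (gap over range 0.946). Its Serpina1b level was 210.5 eRPKM, against 169 to 175 (0.867), and its Serpina3k level was 275 eRPKM, against 189 to 203 (0.841). Without that liver the count of serpins called at 7 days against 3 days went from 9 to 5, and that of all genes from 2753 to 1958. The count of serpins called against control was 13, as with it.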

How the results depend on the processing

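The count at 3 days against control was 0 in every alternative. Against control at 7 days the 13 calls became 6 with log2 depth as a covariate, 8 with the replicate block, 8 in female livers, 8 with controls 1 and 2 only, 8 without the 3 livers labelled MF and 24 at a looser threshold (adjusted p below 0.05, fold change of any size). In these fits the 3383 calls over all genes became 1676, 2720, 2128, 1985, 2798 and 5390. Leaving out 1 liver gave 6 to 17 serpins, with 8 without control 3, 6 without 7-day liver 2 and 7 without 7-day liver 3 (all genes 2723, 2222 and 2057). Against 3 days the 9 calls became 17 with the 2 groups only, 5 with the replicate block, 4 with the depth covariate, 4 without the livers labelled MF, 18 at that looser threshold and 17 with controls 1 and 2 only. There the 2753 calls over all genes became 2346, 1981, 1679, 883, 5085 and 2922. Leaving out 1 liver gave 2 to 15 serpins: 15 without control 4, 5 without 3-day liver 1, and 5, 4 and 2 without 7-day livers 1, 2 and 3 (all genes 3186, 1958, 1628, 1501 and 1412). Fits of fewer livers have fewer degrees of freedom; other causes were not tested.

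Replicate numbers did not pair the livers: the correlation of deviations for same-numbered livers ran from -0.222 to 0.269 and for others from -0.275 to 0.238. Of the 13 calls against control, Serpina4-ps1, Serpina6 and Serpinb6a held in all 27 alternatives, and of 351 values 85 lost the call and 0 changed sign. Alternatives were followed gene by gene for 13 of the 24 members not called, and those that changed sign among these 13 were, under cyclic loess, Serpina10 (0.0392), Serpinf1 (0.266), Serpinf2 (0.0591) and Serping1 (0.139), under quantile normalization Serpinf1 (0.200) and Serping1 (0.0607), and in female livers Serpine2 (0.0797). The median log2 fold change of all genes, 0.26, was 0.03 with size factors, -0.08 with quantile normalization and -0.02 with cyclic loess. Serpin calls split 3 higher and 10 lower here and 1 and 8 with cyclic loess, and all genes 2561 and 822 here, 1951 and 1254 with size factors and 1857 and 1821 with quantile normalization.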
